A study of Mus musculus with 20 samples.

Results

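The DNA replication machinery was followed here as 44 genes, named by symbol and grouped into 7 roles: origin licensing (4 genes), the replicative helicase (12), the sliding clamp and its loader (6), DNA polymerases and primase (9), single-strand binding and flap processing (5), nucleotide supply (5) and the copying of chromatin (3). They were chosen by name and by no cut on measured values, though with earlier results of these data known. All 44 were found by Ensembl identifier among the 54532 genes of the deposited table. The table holds RNA sequencing of 20 mouse libraries (C57BL/6), 2 per group, as FPKM. By name these are fragments per kilobase of transcript and per 1000000 mapped fragments, but the deposited values appear scaled between libraries as well. Hepatocyte organoids (Hep-Org) are 3-dimensional cultures of hepatocytes that were embedded in Matrigel and passaged. The other groups are hepatocytes of undamaged liver and of liver taken from 6 h to 21 d after partial hepatectomy (PHx), the surgical removal of 70% of the liver. The times are 6, 12, 24, 48 and 72 h, then 7, 14 and 21 d. No agent or altered allele is named for any group. The labels do not say which libraries came from separate animals or cultures, so p-values measure the spread between these libraries, which may be technical. The 2 Hep-Org libraries differed in sex by their Xist and Y-linked transcripts, so those 2 did not come from the same animal.

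Before a cell copies its genome, the origin recognition complex, Cdc6 and Cdt1 load the ring of MCM proteins on DNA in G1, which is called licensing. In S phase Cdc45 and the GINS complex turn that ring into the active helicase, and DNA polymerases held by the clamp Pcna copy both strands. Most of these genes are targets of E2F transcription factors, whose activity rises as cells leave quiescence. Adult hepatocytes rarely divide, and after hepatectomy in rodents they re-enter the cell cycle and replicate their DNA before they divide.

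The 20 libraries held 13.7 to 41.4 M reads, as recovered from the FPKM steps. Of the 10 hepatocyte markers, all 10 were at 1 FPKM or more in each of the 18 liver libraries and 8 were in each Hep-Org library, where their summed level was 4394 and 980.5 FPKM against 22094 to 75158 in liver. Markers of other cells were present in liver libraries although the labels name hepatocytes. The summed level of 10 Kupffer cell and macrophage markers was 4.99 and 0.954 FPKM in Hep-Org, where 2 and 0 of the 10 reached 1 FPKM, and 38.7 to 1031 in liver, with 38.7 and 992 in the undamaged libraries. The 8 biliary markers summed to 4447 and 2735 FPKM in Hep-Org and to 5.45 to 336 in liver. Endothelial markers summed to 0.521 and 0.240 FPKM in Hep-Org and 18.6 to 171 in liver, and erythroid markers to 0.352 and 0.442 in Hep-Org and 13.6 to 7090.1 in liver. Stellate and mesenchymal markers summed to 9.50 and 28 in Hep-Org and 4.11 to 79.3 in liver. The part of other cell types in the results was not tested. In such bulk samples, fewer cells of a type and less RNA per cell cannot be told apart. Of the undamaged libraries, replicate 2 had the higher value in 31 of the 44 replication genes (median of replicate 1 minus replicate 2 in log2(FPKM + 1), -0.12) and in all 28 mitosis genes, and its biliary markers summed to 336 FPKM against 8.07 in replicate 1. The pattern of Xist and Y-linked transcripts was female in Hep-Org replicate 2 and at 48 h, 72 h and 7 d, and male elsewhere. The FPKM of a library summed to 184765 and 167676 in Hep-Org and to 326835 to 988797 in liver. Mitochondrial genes held 3.17% and 3.26% of reads in Hep-Org and up to 40.7% in liver.

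Replication genes were low in undamaged liver and at 6 h and 12 h, high in some libraries from 24 h to 7 d, low again at 14 d and 21 d, and high in both Hep-Org libraries. With each gene set to 100 in its highest liver library, the median of the 44 genes was 97.7% and 79.7% in Hep-Org and 19.8% and 30.1% in undamaged liver. It was 22.1% and 17.5% at 6 h, and 20.5% and 17.9% at 12 h. At 24 h it was 89% in replicate 1 and 30.4% in replicate 2. At 48 h it was 69% and 42.7%, at 72 h 61.9% and 82.3%, and at 7 d 26.2% and 57.2%. The 4 libraries of 14 d and 21 d lay between 25.3% and 31.6%. Among liver libraries, 16 of the 44 genes were highest in 24 h replicate 1, 13 in 72 h replicate 2, 6 in 48 h replicate 1, 3 in 72 h replicate 1 and 2 in 7 d replicate 2. The other 4 were Mcm10 and Gins4 (21 d replicate 1), Rfc1 (21 d replicate 2) and Pold2 (14 d replicate 2).

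**Figure D1:**
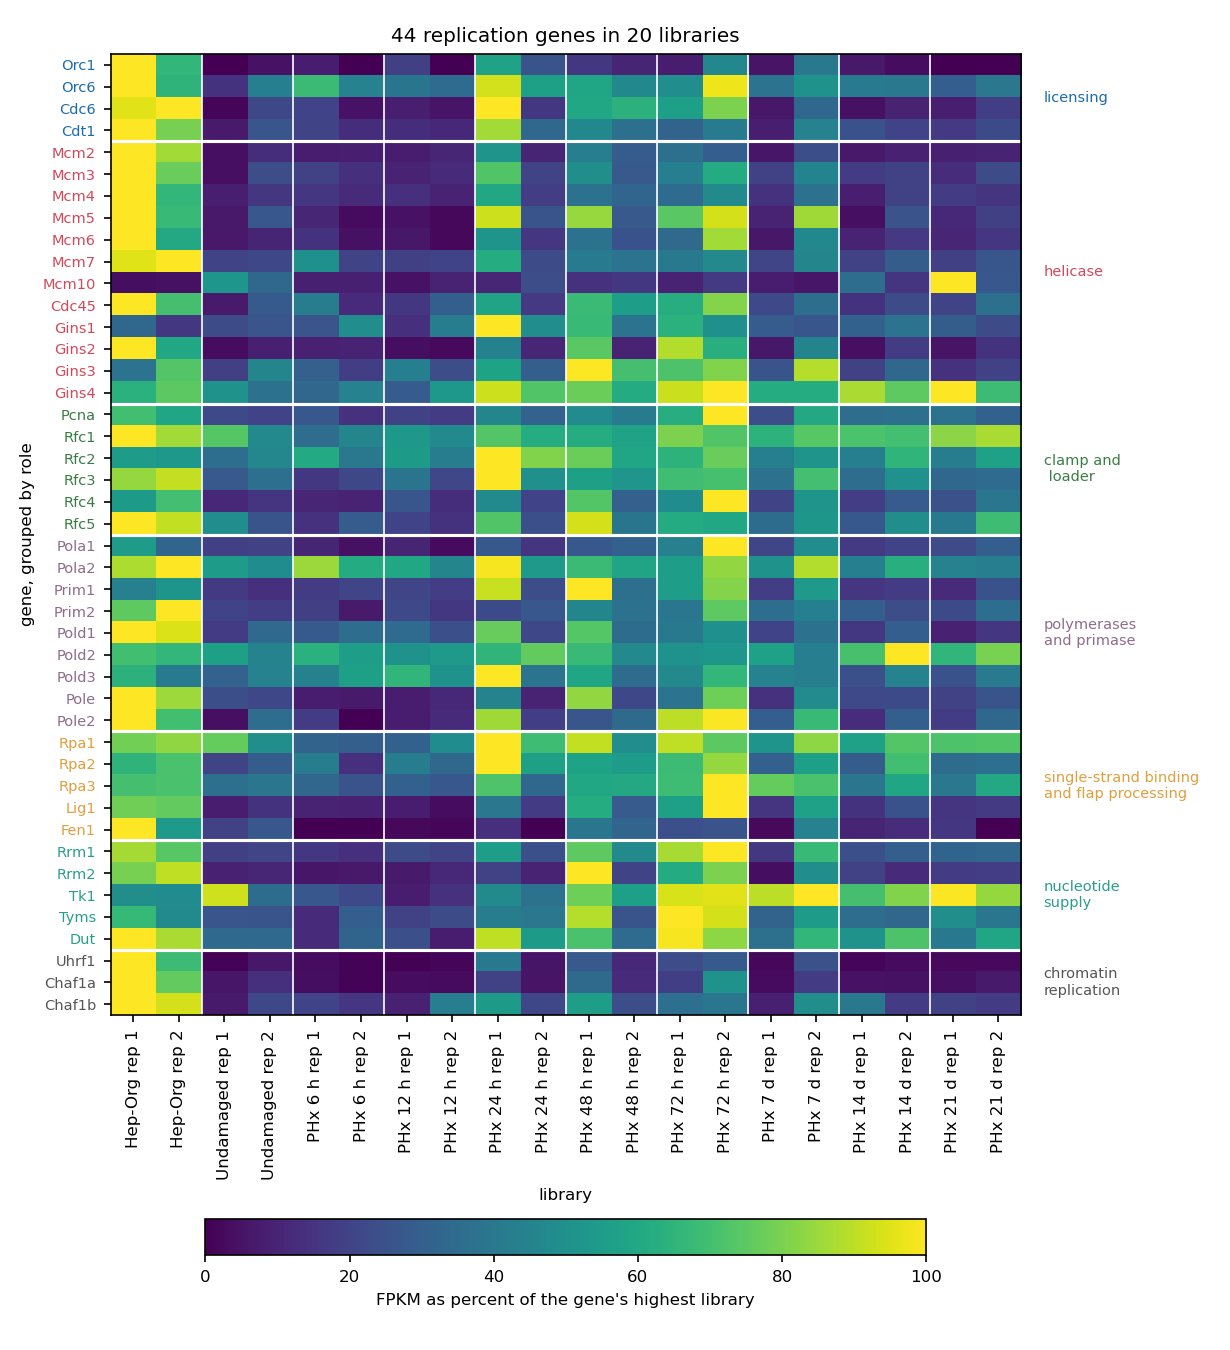
FPKM of the 44 replication genes (down, grouped by role) in the 20 libraries (across), each as percent of the gene's highest library. Both Hep-Org libraries and single libraries of 24 h, 48 h, 72 h and 7 d are bright for most genes, while Mcm10 is dark in Hep-Org and brightest in 21 d replicate 1.

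Most of the 44 genes differed in the same direction between the 2 libraries of 24 h, of 48 h and of 7 d. A group mean can hide 2 unlike values at these times. Replicate 1 was higher in 41 genes at 24 h, with a median difference of 0.58 in log2(FPKM + 1), and in 39 genes at 48 h (median 0.34). At 7 d replicate 2 was higher in 38 genes (median -0.50 for replicate 1 minus replicate 2). At 72 h replicate 2 was higher in 36 genes, with both libraries high (median -0.20). A difference of at least 1 was seen for 9 genes at 24 h, 3 at 48 h, 1 at 72 h and 7 at 7 d, against 6.88%, 7.37%, 6.45% and 10.9% of all tested genes. At 48 h and 72 h the share of the 44 did not exceed that of all tested genes. Over all tested genes the median difference was 0.02 at 24 h, 0.001 at 48 h and 0.02 at 7 d. Replicate 2 was also higher in 33 of the 44 at 14 d, 33 at 21 d and 31 in undamaged liver. The series text mentions 2 submissions, and all PHx libraries numbered 2 were assigned to the later one, so submission and replicate cannot be told apart. The summed Kupffer and macrophage markers were at 336 and 268 FPKM at 24 h, 475 and 438 at 48 h and 234 and 1031 at 7 d, and their part in these differences was not tested.

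**Figure D2:**
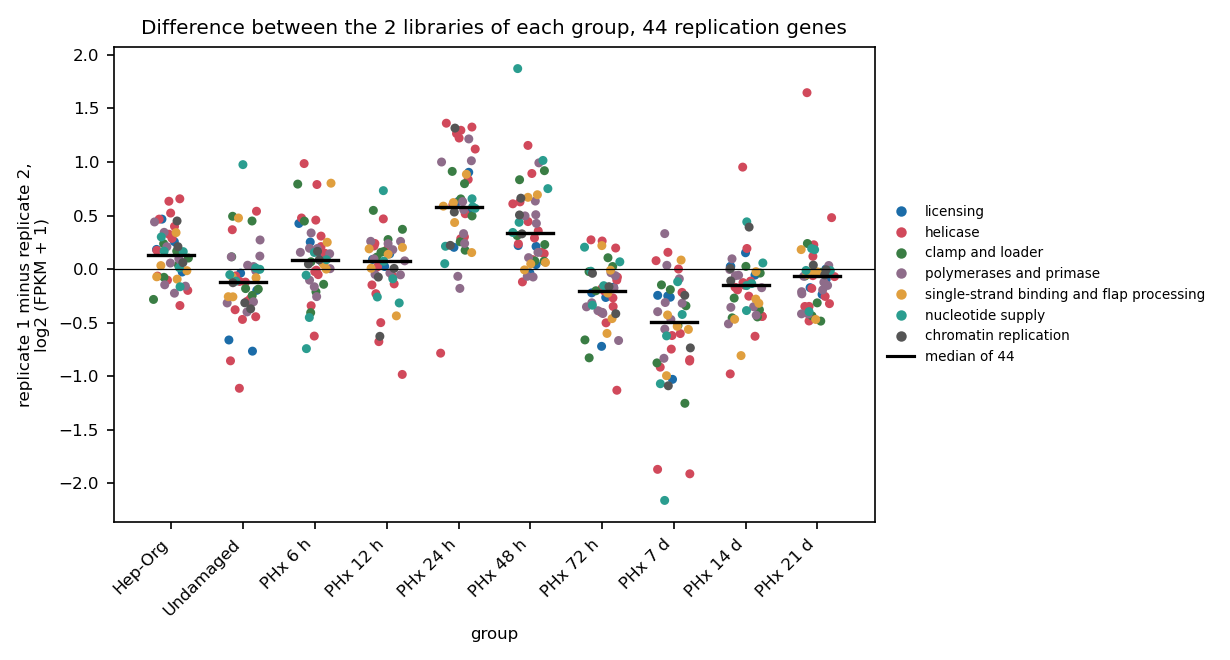
Replicate 1 minus replicate 2 in log2(FPKM + 1) for each of the 44 genes (points, coloured by role) in each group, with the median as a line. The points lie mostly above 0 at 24 h and 48 h and mostly below 0 at 72 h and 7 d.

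Libraries in which replication genes were high were not all high in mitosis genes. The 28 mitosis genes, among them Mki67, Ccnb1 and Plk1, had a median of 5.82% of their highest liver library in 24 h replicate 1, where the replication genes had 89%. In 48 h replicate 1 the mitosis median was 85.7%, in 48 h replicate 2 6.10%, in the 72 h libraries 95.9% and 70.7% and in 7 d replicate 2 61.7%. In Hep-Org it was 36.4% and 28.7%, against 0.891% and 11.4% in undamaged liver. The roles also differed from each other in 24 h replicate 1: licensing stood at 100%, the helicase at 95.6% and polymerases and primase at 86.4%, with nucleotide supply at 47.8%. Nucleotide supply was at 93.8% and 93.7% in the 72 h libraries, where licensing was at 43.7% and 80.7%. These medians describe single libraries and were not tested.

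**Figure D3:**
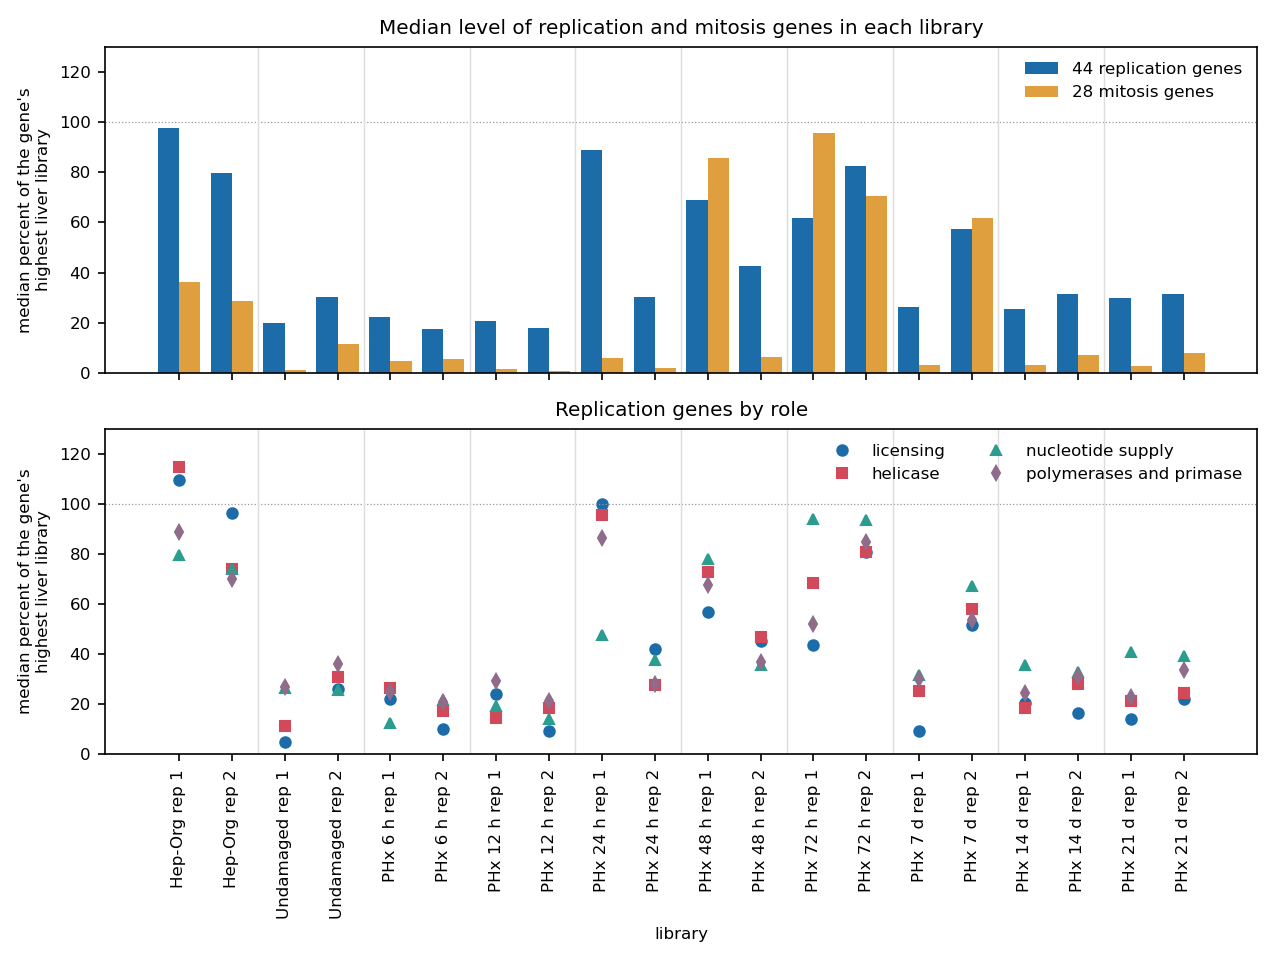
Median level per library as percent of each gene's highest liver library, for the 44 replication and 28 mitosis genes (bars, top) and for 4 roles of replication genes (symbols, bottom). In 24 h replicate 1 the replication bar is high and the mitosis bar low, and nucleotide supply lies under the other roles shown.

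FPKM is a level per length, so genes can be set side by side. Exons of 15 of the 44 overlap another gene, which limits this for those genes. Over the 18 liver libraries the median level ran from 0.0404 FPKM for Orc1 to 11.2 for Pcna, followed by Gins4 at 6.05, Pold2 at 4.27 and Rpa3 at 3.87. Pcna, Rrm2, Mcm6, Mcm7 and Mcm10 were the 5 genes above 10 FPKM in any library. A test across all genes was run on those with at least 1 FPKM in 2 or more libraries, and 37 of the 44 passed. The 7 that did not are Orc1, Cdc6, Gins3, Pole, Pole2, Fen1 and Chaf1a, for which levels are given without a test. Since a gene could pass through Hep-Org alone, the counts below describe the 37 and not all 44.

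In Hep-Org, 17 of the 37 tested replication genes were higher than in undamaged liver and 1, Mcm10, was lower. A gene was called when limma, fitted to log2(FPKM + 1) of all 13162 tested genes, gave an adjusted p (Benjamini-Hochberg) under 0.05 and a difference of at least 1 in log2. That rule called 10.6% of all tested genes higher and 13.8% lower. By role, 2 of 2 licensing genes, 6 of 11 helicase genes, 2 of 6 clamp and loader genes, 1 of 7 polymerase and primase genes, 1 of 4 single-strand binding and flap genes, 3 of 5 nucleotide supply genes and 2 of 2 chromatin genes rose. The median difference over the 37 was 0.92 in log2(FPKM + 1), against -0.03 over all tested genes. In 33 of the 37 both Hep-Org libraries were above both undamaged libraries, as in 33.9% of all tested genes. The same held for 6 of the 7 untested genes. Without Hep-Org replicate 1 the count was 8, of which 7 were higher (Cdt1, Mcm2, Mcm3, Mcm4, Mcm7, Lig1 and Uhrf1). Calls of Chaf1b, Dut, Gins2, Orc6, Pold1 and Rfc4 were lost without undamaged replicate 1, those of Dut, Rfc4 and Rrm2 without Hep-Org replicate 2, and those of Dut and Gins2 without undamaged replicate 2. When libraries were scaled to the same FPKM sum, 8360 of all genes were called higher and 749 lower, in place of 1393 and 1817. That scaling put the median of all genes at 1.29. Relative to it the members' median was 0.88, and the fall of Mcm10 was no longer called.

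Set against liver at 24 h to 72 h, 3 of the 37 genes were higher in Hep-Org, Mcm2, Mcm7 and Uhrf1, where 10.7% of all tested genes were called higher and 14% lower. The median difference over the 37 was 0.32, against -0.01 over all tested genes. Leaving out 24 h replicate 1 gave 5 higher and 1 lower, and leaving out Hep-Org replicate 1 gave 0 higher and 1 lower. Without 24 h replicate 2, Mcm2 and Mcm7 were not called, and without Hep-Org replicate 2 Mcm7 was not. Limma-voom, a fit for read counts run here on recovered reads, called 8 higher and 2 lower. Set against 14 d and 21 d, 11 of the 37 were higher in Hep-Org and 1, Mcm10, lower, with 11.9% and 14.2% of all tested genes. The 11 were Cdt1, Mcm2, Mcm3, Mcm4, Mcm5, Mcm6, Mcm7, Pold1, Lig1, Rrm2 and Uhrf1, and the median over the 37 was 0.75, against 0.00 over all tested genes. Limma-voom called 21 higher and 1 lower. The 3 comparisons share the Hep-Org libraries.

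After PHx the largest count of calls against undamaged liver was at 72 h, where Pcna, Rfc4, Lig1, Rrm1 and Tyms rose, 5 of the 37 with 0 lower, with 1.15% and 2.07% of all tested genes. The median difference over the 37 was 0.85, against -0.05 over all tested genes, and 26 of the 37 had an unadjusted p under 0.05. In 33 of the 37, and in 6 of the 7 untested genes, both 72 h libraries were above both undamaged libraries, as in 20.1% of all tested genes. These calls were at the edge of the threshold. With the replicate number as a block, or with no filter on low values, 0 were called. Leaving out an undamaged or a 72 h library left 0 or 1 of them, and leaving out a library of 12 h, 24 h, 14 d, 21 d or Hep-Org left Pcna, Lig1 and Rrm1. All groups share 1 estimate of the spread. Limma-voom called Pcna alone, and the first submission by itself called 0, with a median of 0.81 and 20 of 36 genes at an unadjusted p under 0.05. Stellate and mesenchymal markers summed to 66.6 and 70 FPKM at 72 h and 4.11 and 20.1 in undamaged liver, and Kupffer and macrophage markers to 766 and 493 at 72 h and 38.7 and 992 in undamaged liver. Their part in these differences was not tested. Both 72 h libraries had the female pattern of Xist and Y-linked transcripts and both undamaged ones the male, so sex and time cannot be told apart here.

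At the other times few or no genes were called. Against undamaged liver, Mcm10 fell at 6 h (0 higher and 1 lower, with 5.37% and 7.98% of all tested genes), and at 12 h Mcm10 and Tk1 fell (0 and 2, with 1.71% and 3.85%). With the replicate block the count was 0 at 6 h and 1 (Tk1) at 12 h. The fall of Mcm10 at either time was also lost with no filter, with the same FPKM sum and in the first submission alone. The count at 6 h was 0 without undamaged replicate 1 or either 6 h library and 2 without undamaged replicate 2, and that at 12 h was 0 or 1 without any 1 of the undamaged and 12 h libraries. At 24 h limma called 0 of the 37, with 12 at an unadjusted p under 0.05 and 0 by limma-voom, where 0.0684% of all tested genes were called higher and 0.16% lower. The median difference was 0.52 at 24 h and 0.54 at 48 h. At 48 h limma called 0 of the 37, with 13 at an unadjusted p under 0.05 and 0 by limma-voom (0.228% and 0.463% of all tested genes). At 7 d limma called 0 of the 37, with 2 at an unadjusted p under 0.05 and 0 by limma-voom (0.289% and 0.319%), and likewise at 14 d and 21 d, each with 2 at an unadjusted p under 0.05 and 0% of all tested genes called in either direction. The count at 7 d was 1 without undamaged replicate 1, 21 d replicate 1 or 21 d replicate 2. Liver at 24 h to 72 h against 14 d and 21 d also gave 0 calls by both tools, with 25 of the 37 at an unadjusted p under 0.05, a median of 0.51, and 0.205% and 0.387% of all tested genes called. Without 24 h replicate 2 that count was 4, and without 21 d replicate 2 it was 1. The 24 h libraries alone against 14 d and 21 d gave 0, with 0.0304% and 0.0608% of all tested genes, an alternative added after the data were seen. With 2 libraries per group, a missed threshold does not show that levels were alike. Libraries of 48 h and 7 d had the female pattern of Xist and Y-linked transcripts and undamaged liver the male. Sex and time cannot be told apart in these 2 comparisons, and the window of 24 h to 72 h held both patterns.

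The F test over the 8 PHx times, which asks whether the times differ from each other, called 7 of the 37 genes. It called 13.6% of all tested genes, so the count for the 37 was near that share. A range of at least 1 between group means was required. The 7 were Tk1, Dut, Gins4, Lig1, Pcna, Rpa3 and Rrm1, and 22 of the 37 had an unadjusted p under 0.05. All but Tk1 had their highest group mean at 72 h. The pattern of Xist and Y-linked transcripts was female at 48 h, 72 h and 7 d and male at the other times. Differences of sex and of time are thus mixed in this test. With no filter on low values, or with the replicate number as a block, Tk1 alone was called, and the first submission alone gave 0. The count was 12 without 24 h replicate 2 and 1 to 4 without any 1 library of 6 h, 12 h, 72 h, 14 d or Hep-Org, 24 h replicate 1 or 21 d replicate 1.

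**Figure D4:**
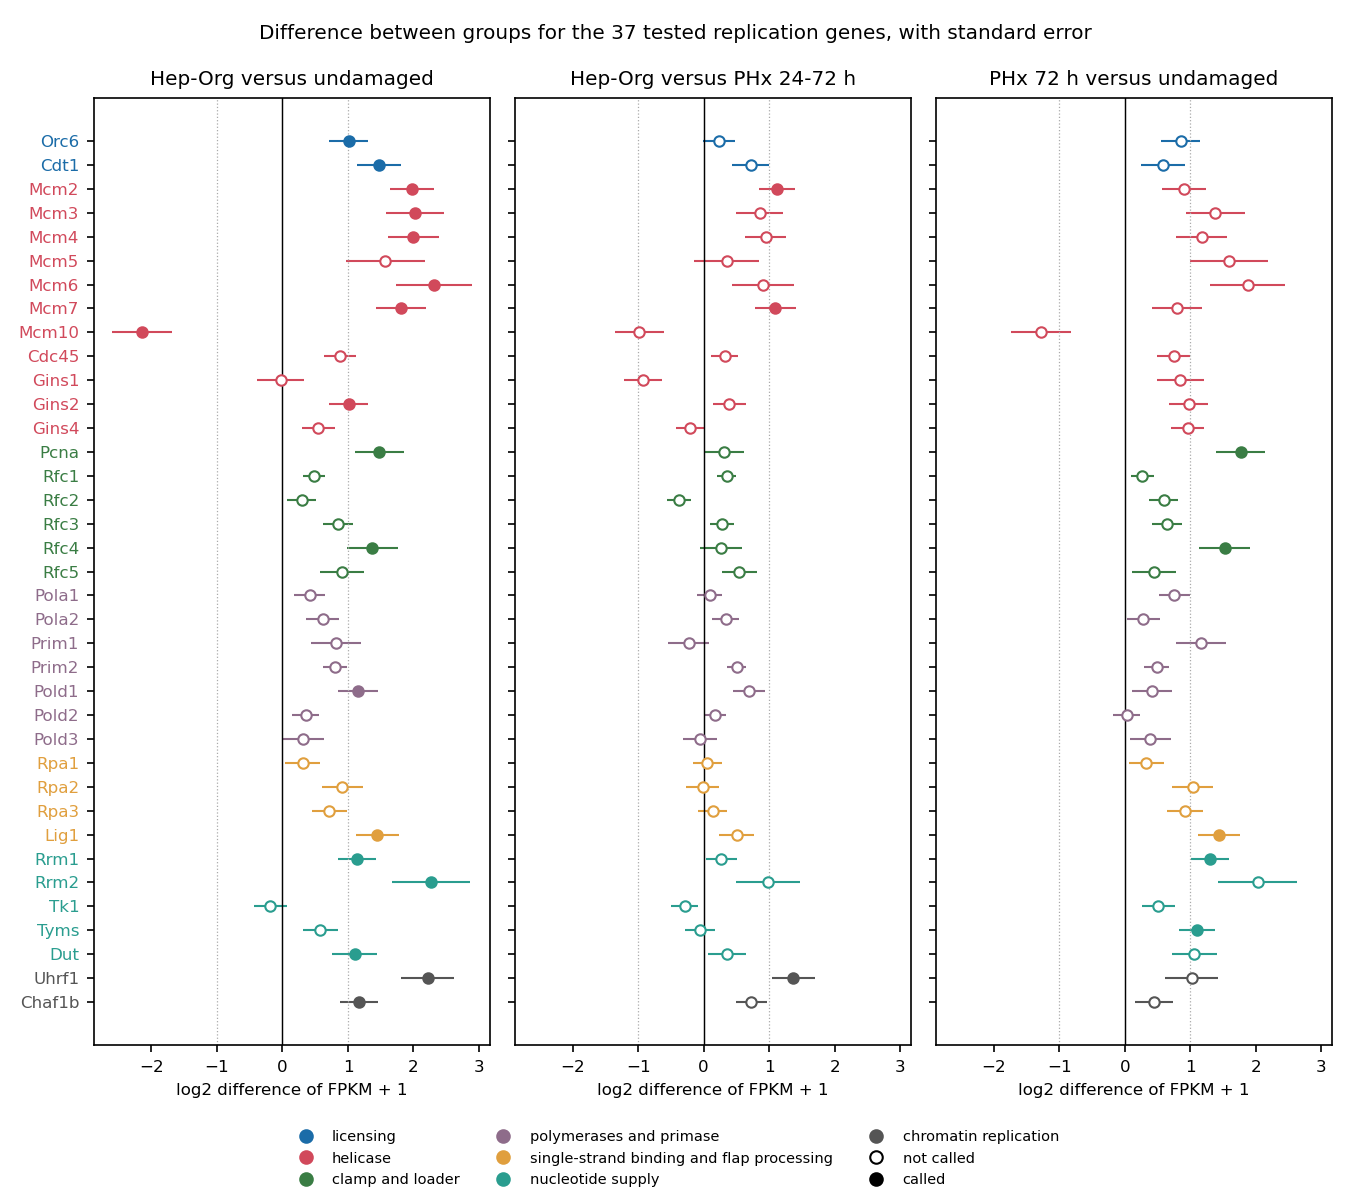
Log2 difference of FPKM + 1 with its standard error for the 37 tested genes, Hep-Org against undamaged liver (left), Hep-Org against liver at 24 h to 72 h (middle) and liver at 72 h against undamaged (right). Filled points were called, 18 at left, 3 in the middle and 5 at right, and Mcm10 lies far below 0 at left.

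Most of these genes were high in the same libraries, and their promoters were read for E2F sites. RefSeq promoter windows (GRCm38.p6, 250 bases before to 50 after the start) were found for 37 of the 44 genes, and not for Mcm4, Gins1, Gins2, Gins4, Rfc2, Prim2 and Pole. Each was searched on both strands for 4 spellings of the E2F site (TTTCCCGC, TTTCGCGC, TTTGCCGC and TTTGGCGC). A gene was counted when any of its windows held a match. One or more occurred for 15 of the 37 genes, or 40.5%. The share was 2.6% of all 27025 genes with a window, and 1 of the 25 mitosis genes with a window had a match. The 15 were Orc1, Cdc6, Cdt1, Mcm3, Mcm5, Mcm6, Mcm7, Gins3, Rfc3, Pola1, Pold1, Pold3, Pole2, Lig1 and Uhrf1. CCAAT, on either strand, occurred for 23 of the 37 genes, for 41.1% of all genes with a window and for 18 of the 25 mitosis genes. A match is a string of letters and shows no binding. The windows below belong to the 2 genes of licensing, of the helicase and of nucleotide supply with the largest F over all groups. Cdt1 holds 1 match, in capitals, whose first letter is base 33 of the transcript, counted from 1. The other 5 hold none: Orc6, Mcm2 and Dut, which were called higher in Hep-Org, and Mcm10 and Tk1, which were not. The Mcm10 window is cut within a string that begins as TTTGGCGC does, so a match running past its end would be missed.
Cdt1 (licensing, chr8:122567765-122568064, plus strand): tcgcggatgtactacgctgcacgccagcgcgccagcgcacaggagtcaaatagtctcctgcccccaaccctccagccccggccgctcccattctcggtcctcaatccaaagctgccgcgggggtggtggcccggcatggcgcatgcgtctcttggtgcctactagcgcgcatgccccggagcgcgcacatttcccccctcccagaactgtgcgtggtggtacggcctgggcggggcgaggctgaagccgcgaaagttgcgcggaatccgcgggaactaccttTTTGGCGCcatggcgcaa
Orc6 (licensing, chr8:85299382-85299681, plus strand): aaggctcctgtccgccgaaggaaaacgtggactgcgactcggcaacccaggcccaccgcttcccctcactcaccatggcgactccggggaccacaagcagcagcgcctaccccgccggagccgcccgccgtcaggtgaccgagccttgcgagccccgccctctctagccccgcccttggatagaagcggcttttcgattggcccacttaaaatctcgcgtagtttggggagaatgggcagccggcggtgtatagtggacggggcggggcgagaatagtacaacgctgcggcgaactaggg
Mcm2 (helicase, chr6:88898731-88899030, minus strand): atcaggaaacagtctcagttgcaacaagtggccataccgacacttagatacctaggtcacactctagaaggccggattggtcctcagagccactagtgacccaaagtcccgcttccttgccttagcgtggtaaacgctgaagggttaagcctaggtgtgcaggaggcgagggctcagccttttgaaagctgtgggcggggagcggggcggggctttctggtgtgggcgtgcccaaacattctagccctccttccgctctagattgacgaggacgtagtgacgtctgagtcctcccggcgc
Mcm10 (helicase, chr2:5012742-5013041, minus strand): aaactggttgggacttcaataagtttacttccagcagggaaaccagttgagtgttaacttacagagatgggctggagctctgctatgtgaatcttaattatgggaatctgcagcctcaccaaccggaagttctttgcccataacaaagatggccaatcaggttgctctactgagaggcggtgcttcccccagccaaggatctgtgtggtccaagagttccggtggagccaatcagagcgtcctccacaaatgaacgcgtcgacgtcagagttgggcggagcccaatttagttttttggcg
Tk1 (nucleotide supply, chr11:117825965-117826264, minus strand): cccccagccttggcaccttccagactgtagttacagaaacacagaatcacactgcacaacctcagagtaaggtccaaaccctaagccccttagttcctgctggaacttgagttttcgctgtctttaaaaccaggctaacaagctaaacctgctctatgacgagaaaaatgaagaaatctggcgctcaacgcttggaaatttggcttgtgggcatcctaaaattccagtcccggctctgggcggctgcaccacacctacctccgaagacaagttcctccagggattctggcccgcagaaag
Dut (nucleotide supply, chr2:125247265-125247564, plus strand): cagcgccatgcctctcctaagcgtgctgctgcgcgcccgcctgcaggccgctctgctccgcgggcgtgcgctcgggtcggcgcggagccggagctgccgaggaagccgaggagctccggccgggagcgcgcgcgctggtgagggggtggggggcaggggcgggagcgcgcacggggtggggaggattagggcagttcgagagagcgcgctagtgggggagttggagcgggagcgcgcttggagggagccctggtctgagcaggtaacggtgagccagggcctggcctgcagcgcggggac

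Both tested licensing genes rose in Hep-Org. Cdt1, which brings the MCM ring to origins, was at 3.87 and 3.08 FPKM in the Hep-Org libraries, against 0.280 and 1.02 in undamaged liver. Both Hep-Org libraries were above both undamaged ones, and the difference in log2(FPKM + 1) was 1.47 ± 0.34, adjusted p = 0.00471 (limma, SE). After PHx Cdt1 was at 0.801 and 0.511 FPKM at 6 h, 0.503 and 0.438 at 12 h, 3.33 and 1.32 at 24 h and 1.81 and 1.42 at 48 h. It was at 1.24 and 1.61 at 72 h, 0.328 and 1.71 at 7 d, 0.972 and 0.774 at 14 d and 0.661 and 0.873 at 21 d. Only 24 h replicate 1 reached the range of the Hep-Org libraries. Orc6, a subunit of the origin recognition complex, was at 3.87 and 2.52 FPKM in the Hep-Org libraries, against 0.573 and 1.67 in undamaged liver. Orc6 was at 2.64 and 1.71 FPKM at 6 h, 1.5 and 1.35 at 12 h, 3.60 and 2.20 at 24 h and 2.27 and 1.81 at 48 h. Later values were 1.89 and 3.76 at 72 h, 1.47 and 1.96 at 7 d, 1.60 and 1.55 at 14 d and 1.15 and 1.54 at 21 d. It rose in Hep-Org by 1.01 ± 0.30 in log2 (limma, adjusted p = 0.0193). The difference was 0.63 without undamaged replicate 1 and 0.78 without Hep-Org replicate 1, neither of them called. The libraries 72 h replicate 2 (3.76 FPKM), 24 h replicate 1 (3.60) and 6 h replicate 1 (2.64) lay between the 2 Hep-Org libraries. Exons of Orc6 share 6.93% of their bases with Vps35 on the opposite strand, and the way such reads were counted is not given in the sources used here. Orc1 and Cdc6, which act in the same loading step, stayed under 1 FPKM in all 20 libraries. Orc1 was at 0.546 and 0.361 FPKM in Hep-Org and 0 and 0.0264 in undamaged liver, and at most 0.314 in any liver library. Cdc6 was at 0.700 and 0.732 in Hep-Org and 0.00933 and 0.158 in undamaged liver, with 0.732 in 24 h replicate 1.

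Of the 6 subunits of the MCM ring, the core of the helicase, Mcm2, Mcm3, Mcm4, Mcm6 and Mcm7 rose in Hep-Org. Mcm2 was at 4.92 and 4.24 FPKM in the Hep-Org libraries, against 0.210 and 0.647 in undamaged liver. After PHx Mcm2 was at 0.369 and 0.419 FPKM at 6 h, 0.389 and 0.529 at 12 h, 2.54 and 0.514 at 24 h and 2.11 and 1.43 at 48 h. It was at 1.82 and 1.46 at 72 h, 0.296 and 1.18 at 7 d, 0.329 and 0.451 at 14 d and 0.433 and 0.495 at 21 d. Its Hep-Org values exceeded those of all 18 liver libraries, and the difference from undamaged liver was 1.98 ± 0.33, adjusted p = 5.52e-04 (limma). Mcm4 was at 8.68 and 5.73 FPKM in the Hep-Org libraries, against 0.720 and 1.38 in undamaged liver. Mcm4 was at 1.37 and 1.05 FPKM at 6 h, 1.17 and 0.838 at 12 h, 5.16 and 1.56 at 24 h and 3.28 and 2.84 at 48 h. From 72 h it was at 3.05 and 4.16 at 72 h, 1.27 and 3.28 at 7 d, 0.732 and 1.68 at 14 d and 1.55 and 1.35 at 21 d. Its highest liver library, 24 h replicate 1, stayed under both Hep-Org libraries, and it rose in Hep-Org by 2.0 ± 0.39, adjusted p = 0.00160 (limma). Mcm3, Mcm6 and Mcm7 rose by 2.03 ± 0.45, 2.31 ± 0.58 and 1.81 ± 0.38, with adjusted p of 0.00356, 0.00765 and 0.00256 (limma). Mcm6 was at 11.2 and 6.77 FPKM in Hep-Org and at 0.784 and 1.16 in undamaged liver, with 3.87 and 9.67 at 72 h, 5.80 and 1.77 at 24 h and 0.715 and 5.27 at 7 d. Mcm5 was at 5.49 and 3.69 in Hep-Org and 0.379 and 1.5 in undamaged liver, which missed the threshold (1.57 ± 0.60, adjusted p = 0.0599, limma), and at 0.516 and 4.70 at 7 d. Of the 6 ring subunits, Mcm2, Mcm3, Mcm4 and Mcm7 had both Hep-Org libraries above every liver library, as did 14.9% of all tested genes.

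Mcm10, which helps to start the unwinding of origins, was the 1 replication gene called lower in Hep-Org. It was at 0.509 and 0.620 FPKM in Hep-Org, against 7.37 and 4.75 in undamaged liver. After PHx Mcm10 was at 1.22 and 1.26 FPKM at 6 h, 0.675 and 1.37 at 12 h, 1.51 and 3.33 at 24 h and 2.01 and 2.27 at 48 h. It was at 1.40 and 2.39 at 72 h, 1.07 and 0.853 at 7 d, 5.02 and 2.11 at 14 d and 14 and 3.79 at 21 d. The highest of all libraries was 21 d replicate 1, and both undamaged libraries exceeded all libraries from 6 h to 7 d. In log2(FPKM + 1) Mcm10 was lower in Hep-Org (-2.15 ± 0.46, adjusted p = 0.00282), at 6 h (-1.63 ± 0.46, adjusted p = 0.0261) and at 12 h (-1.80 ± 0.46, adjusted p = 0.0333, all limma) than in undamaged liver. The fall in Hep-Org was kept without any 1 library and lost when libraries were scaled to the same FPKM sum. The fall at 6 h was lost without undamaged replicate 1 or either 6 h library, and that at 12 h without any 1 of the undamaged or 12 h libraries. Recovered reads of Mcm10 numbered 171 and 243 in Hep-Org and 1162 and 398 in undamaged liver.

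Cdc45 and the GINS subunits, which activate the ring, gave mixed results. Cdc45 was at 1.57 and 1.11 FPKM in Hep-Org and at 0.111 and 0.446 in undamaged liver, a difference of 0.88 ± 0.25 that was under the required 1 (limma, adjusted p = 0.0145). Gins2 rose to 1.52 and 0.911 in Hep-Org, against 0.0476 and 0.135 in undamaged liver (1.01 ± 0.30, adjusted p = 0.0208, limma), and 67.3% of its exon bases are shared with Gse1 on the opposite strand. Gins4, the most abundant GINS subunit, was at 5.92 and 6.94 in Hep-Org and 4.77 and 3.47 in undamaged liver. It differed between PHx times (F test of limma, adjusted p = 0.0342), with 2.71 and 4.93 FPKM at 12 h, 8.54 and 9.24 at 72 h and 9.27 and 6.36 at 21 d. The highest of all 20 libraries was 21 d replicate 1. Gins1 was highest in 24 h replicate 1 at 6.45 FPKM and was at 2.16 and 1.04 in Hep-Org, against 1.48 and 1.70 in undamaged liver. Gins3 stayed between 0.150 and 1.05.

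Pcna, the sliding clamp, rose at 72 h and in Hep-Org. It was at 23.1 and 19.4 FPKM in Hep-Org, against 7.30 and 6.66 in undamaged liver. After PHx Pcna was at 8.96 and 4.75 FPKM at 6 h, 6.56 and 5.78 at 12 h, 15.2 and 10.5 at 24 h and 16 and 13.5 at 48 h. It was at 20.6 and 33.1 at 72 h, 7.79 and 19.9 at 7 d, 11.9 and 12.2 at 14 d and 12.4 and 10.3 at 21 d. Both 72 h libraries were above all 4 libraries of 14 d and 21 d, and those in turn were above both undamaged libraries. At 72 h Pcna was higher than in undamaged liver by 1.77 ± 0.38, adjusted p = 0.0265 (limma), and in Hep-Org by 1.48 ± 0.38, adjusted p = 0.00865. The 8 times differed (F test of limma, adjusted p = 0.0403).

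The clamp loader genes gave smaller differences. Rfc4 was at 3.18 and 4.09 FPKM in Hep-Org and 2.84 and 5.82 at 72 h, against 0.668 and 0.899 in undamaged liver. It rose in both, by 1.37 ± 0.39, adjusted p = 0.0167, and by 1.52 ± 0.39, adjusted p = 0.0485 (limma). The 72 h call was lost in 16 of the 20 fits without 1 library and in 5 of the 7 other alternatives. Rfc4 was at 0.636 and 0.560 FPKM at 6 h, 1.56 and 0.751 at 12 h, 2.76 and 1.17 at 24 h and 4.26 and 1.78 at 48 h. Values of later times were 1.18 and 3.01 at 7 d, 1.05 and 1.67 at 14 d and 1.43 and 2.29 at 21 d. At 24 h and 48 h replicate 1 was the higher library, and at 72 h and 7 d replicate 2. Rfc4 shares 12.7% of its exon bases with Eif4a2 on the opposite strand, a gene that reached 63.5 FPKM. Rfc3 was at 2.29 and 2.47 in Hep-Org and 0.756 and 0.992 in undamaged liver, and its difference of 0.85 ± 0.23 was under the required 1 (limma, adjusted p = 0.0115). Rfc3 was at 0.441 and 0.590 FPKM at 6 h, 1.05 and 0.585 at 12 h, 2.73 and 1.37 at 24 h and 1.55 and 1.42 at 48 h, with 24 h replicate 1 above both Hep-Org libraries. It was then at 1.89 and 1.94 at 72 h, 1.02 and 1.91 at 7 d, 0.974 and 1.38 at 14 d and 0.913 and 0.954 at 21 d. Rfc1, the large subunit of the loader, was at 4.01 and 3.46 in Hep-Org and 2.95 and 1.89 in undamaged liver, and it kept within 1.43 to 3.50 FPKM in all liver libraries. Rfc1 was at 1.43 and 1.82 FPKM at 6 h, 2.14 and 1.90 at 12 h, 2.93 and 2.48 at 24 h and 2.48 and 2.30 at 48 h. The later times gave 3.22 and 2.92 at 72 h, 2.58 and 2.97 at 7 d, 2.87 and 2.80 at 14 d and 3.31 and 3.50 at 21 d, with its highest liver values at 21 d. Rfc2 and Rfc5 were not called in any comparison with undamaged liver.

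**Figure D5:**
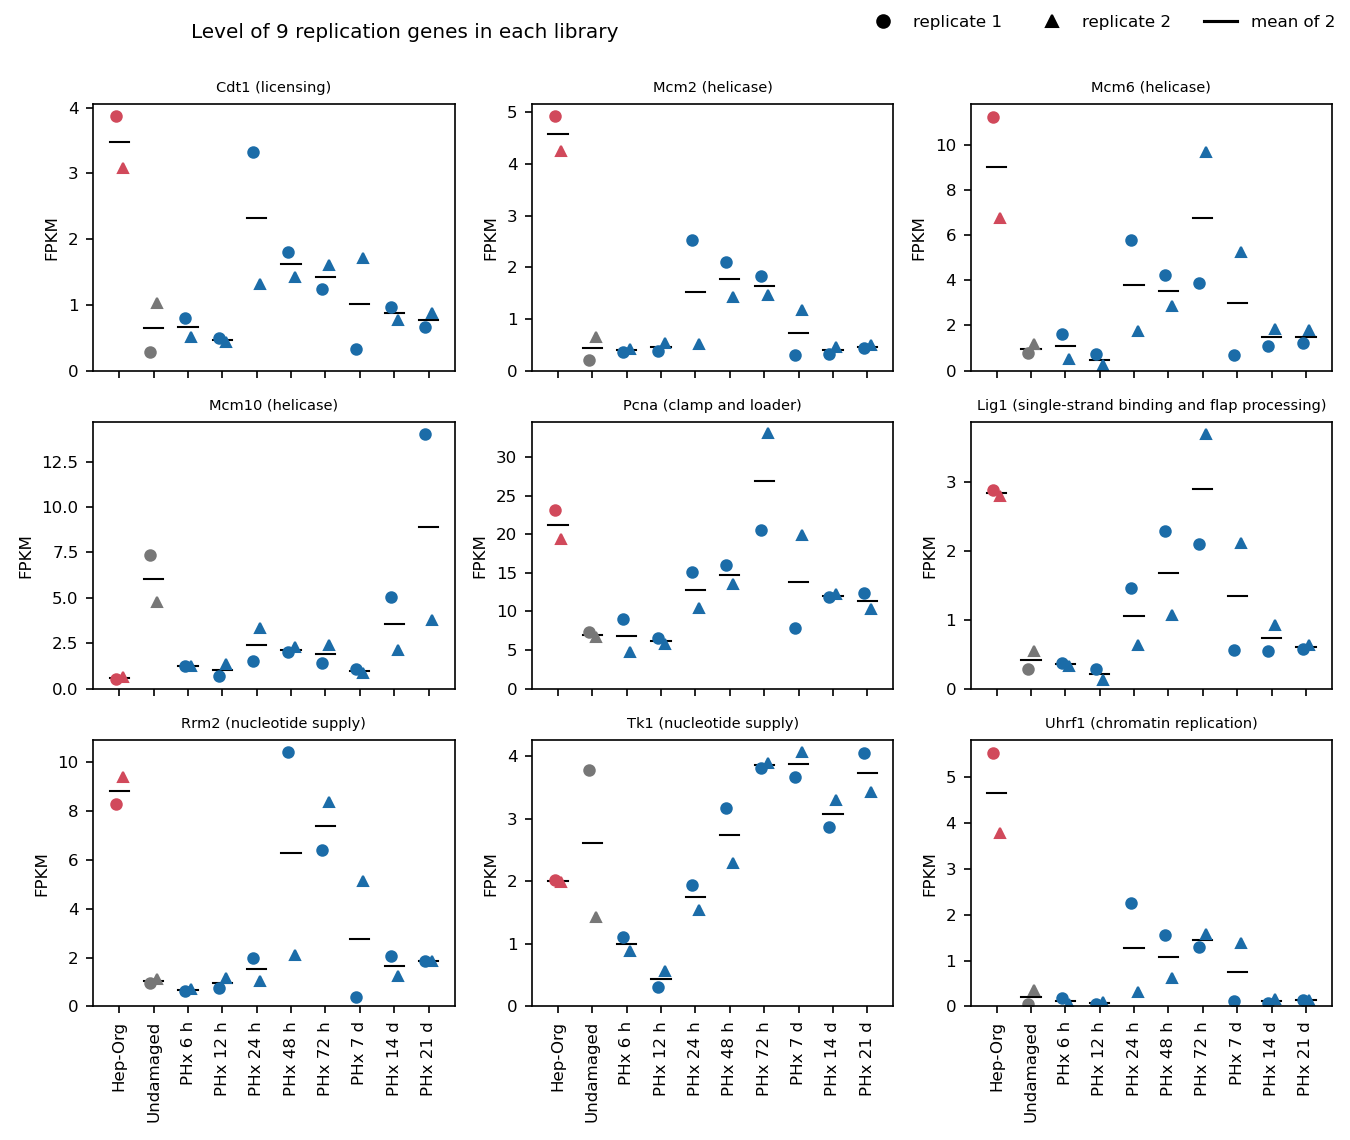
FPKM of 9 replication genes in each library (circles replicate 1, triangles replicate 2, line the mean of 2), for Hep-Org, undamaged liver and the 8 times after PHx. Mcm2 and Uhrf1 are highest in both Hep-Org libraries, Pcna is highest in 72 h replicate 2, and Mcm10 is highest in 21 d replicate 1 and lowest in Hep-Org.

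Of the 7 roles, polymerases and primase had the smallest share of called genes in Hep-Org. Pold1, the catalytic subunit of DNA polymerase delta, was called in Hep-Org, at 2.99 and 2.83 FPKM against 0.532 and 1.02 in undamaged liver (1.15 ± 0.30, adjusted p = 0.0104, limma), and both Hep-Org libraries exceeded all 18 liver libraries. Pold1 was at 0.845 and 1.07 FPKM at 6 h, 1.04 and 0.731 at 12 h, 2.29 and 0.647 at 24 h and 2.19 and 1.06 at 48 h, replicate 1 being the high one at 24 h and 48 h. It was at 1.21 and 1.5 at 72 h, 0.606 and 1.12 at 7 d, 0.480 and 0.895 at 14 d and 0.277 and 0.478 at 21 d. Prim2, the large subunit of primase, was at 1.03 and 1.38 in Hep-Org and 0.279 and 0.248 in undamaged liver, with a difference of 0.80 ± 0.19 (adjusted p = 0.00509, limma) that was under the required 1. Prim2 was at 0.259 and 0.101 FPKM at 6 h, 0.304 and 0.221 at 12 h, 0.311 and 0.374 at 24 h and 0.633 and 0.517 at 48 h. It was at 0.538 and 1.04 at 72 h, 0.496 and 0.592 at 7 d, 0.414 and 0.323 at 14 d and 0.309 and 0.497 at 21 d, and 72 h replicate 2 alone among liver libraries reached the Hep-Org range. Pola1, the catalytic subunit of polymerase alpha, was at 1.05 and 0.620 in Hep-Org and 0.360 and 0.375 in undamaged liver. Pola1 was at 0.198 and 0.0848 FPKM at 6 h, 0.200 and 0.0581 at 12 h, 0.527 and 0.294 at 24 h and 0.518 and 0.590 at 48 h. It was at 0.830 and 1.91 at 72 h, 0.395 and 0.933 at 7 d, 0.327 and 0.385 at 14 d and 0.439 and 0.566 at 21 d, so that 72 h replicate 2 held its highest value, above Hep-Org. Prim1, the catalytic subunit of primase, was at 3.39 and 0.892 FPKM at 24 h and 3.70 and 1.36 at 48 h, so replicate 1 was the high one at both times. Pold2, the second subunit of polymerase delta, was at 5.23 and 4.97 in Hep-Org, 4.24 and 3.34 in undamaged liver and 5.30 and 7.49 at 14 d, its highest pair. Pole and Pole2 of polymerase epsilon stayed under 1 FPKM in all libraries. Pole was at 0.796 and 0.679 in Hep-Org and 0.192 and 0.173 in undamaged liver, and Pole2 at 0.802 and 0.559 in Hep-Org and 0.0339 and 0.287 in undamaged liver.

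Of the genes for single-strand binding and for joining the lagging strand, Lig1 was the 1 called in Hep-Org. DNA ligase Lig1, which seals Okazaki fragments, was at 2.89 and 2.80 FPKM in Hep-Org, against 0.286 and 0.538 in undamaged liver. After PHx Lig1 was at 0.373 and 0.333 FPKM at 6 h, 0.285 and 0.127 at 12 h, 1.46 and 0.635 at 24 h and 2.28 and 1.06 at 48 h. It was at 2.09 and 3.69 at 72 h, 0.563 and 2.12 at 7 d, 0.546 and 0.929 at 14 d and 0.572 and 0.626 at 21 d. It rose in Hep-Org by 1.45 ± 0.32, adjusted p = 0.00400, and at 72 h by 1.44 ± 0.32, adjusted p = 0.0331 (limma), and differed between PHx times (F test, limma, adjusted p = 0.0354). Rpa3, the smallest subunit of the protein that coats single strands, was at 5.50 and 5.57 in Hep-Org and 2.88 and 3.07 in undamaged liver (0.72 ± 0.27, adjusted p = 0.0590, limma), a difference under the required 1. Rpa3 was at 2.58 and 2.01 FPKM at 6 h, 2.42 and 2.11 at 12 h, 5.66 and 2.60 at 24 h and 4.67 and 4.70 at 48 h. It was at 5.39 and 7.80 at 72 h, 5.96 and 5.56 at 7 d, 3.06 and 4.62 at 14 d and 3.12 and 4.70 at 21 d. The times differed (F test, limma, adjusted p = 0.0429), with both libraries of 72 h and of 7 d above all libraries of 6 h, 12 h, 14 d and 21 d. Rpa1, its large subunit, was at 4.21 and 4.47 in Hep-Org and 4.08 and 2.65 in undamaged liver. Rpa1 was at 1.71 and 1.62 FPKM at 6 h, 1.67 and 2.61 at 12 h, 5.36 and 3.70 at 24 h and 4.87 and 2.63 at 48 h, lowest at 6 h and in 12 h replicate 1. It was at 4.83 and 4.01 at 72 h, 2.76 and 4.45 at 7 d, 3.06 and 3.93 at 14 d and 3.86 and 3.91 at 21 d. Fen1, the flap endonuclease, was at 0.841 and 0.454 in Hep-Org and at most 0.373 in liver. Of its exon bases 78.8% are shared with the antisense gene Gm10143, so its level is uncertain.

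Of the 5 nucleotide supply genes, Rrm1, Rrm2 and Dut rose in Hep-Org, and Rrm1 and Tyms rose at 72 h. Rrm1 and Rrm2 encode the large and the small subunit of ribonucleotide reductase. Rrm1 was at 2.85 and 2.43 FPKM in the Hep-Org libraries, against 0.625 and 0.684 in undamaged liver. After PHx Rrm1 was at 0.531 and 0.441 FPKM at 6 h, 0.758 and 0.671 at 12 h, 1.84 and 0.800 at 24 h and 2.47 and 1.56 at 48 h. It was at 2.85 and 3.29 at 72 h, 0.539 and 2.23 at 7 d, 0.805 and 0.982 at 14 d and 1.06 and 1.08 at 21 d. It rose in Hep-Org by 1.14 ± 0.29, adjusted p = 0.00926, and at 72 h by 1.30 ± 0.29, adjusted p = 0.0328 (limma), and the times differed (F test, limma, adjusted p = 0.0452). Rrm2 was at 8.28 and 9.40 in Hep-Org and 0.968 and 1.13 in undamaged liver (2.26 ± 0.60, adjusted p = 0.0105, limma), and at 10.4 and 2.12 at 48 h, 6.42 and 8.38 at 72 h and 0.372 and 5.13 at 7 d. Its 72 h difference of 2.03 ± 0.60 missed the threshold (adjusted p = 0.0706, limma). Tyms, thymidylate synthase, was at 2.80 and 2.62 at 72 h, against 0.737 and 0.724 in undamaged liver (1.10 ± 0.27, adjusted p = 0.0430, limma), a call lost in 14 of the 20 fits without 1 library and in 5 of the 7 other alternatives. In Hep-Org it was at 1.87 and 1.33. Tyms was at 0.346 and 0.840 FPKM at 6 h, 0.541 and 0.641 at 12 h, 1.18 and 1.10 at 24 h and 2.48 and 0.723 at 48 h, where 48 h replicate 1 was near the 72 h level and replicate 2 at the undamaged one. It was at 0.886 and 1.53 at 7 d, 1.0 and 0.924 at 14 d and 1.38 and 1.10 at 21 d. Dut, which removes dUTP, was at 5.59 and 4.89 in Hep-Org, against 1.90 and 1.91 in undamaged liver (1.10 ± 0.35, adjusted p = 0.0262, limma). Dut was at 0.681 and 1.81 FPKM at 6 h, 1.37 and 0.425 at 12 h, 5.05 and 3.04 at 24 h and 3.99 and 1.96 at 48 h. It was at 5.51 and 4.65 at 72 h, 2.06 and 3.71 at 7 d, 2.85 and 4.03 at 14 d and 2.26 and 3.30 at 21 d. The times differed (F test, limma, adjusted p = 0.0335). All libraries from 24 h to 21 d were above the undamaged ones, which are not part of that test. The margin was small in 48 h replicate 2 (1.96) and 7 d replicate 1 (2.06).

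Tk1, thymidine kinase of the salvage route, had the largest F over the PHx times of all 37 genes (adjusted p = 0.00253, limma). It was at 2.01 and 1.98 FPKM in Hep-Org, against 3.78 and 1.43 in undamaged liver, 2 undamaged values that lie on either side of Hep-Org. After PHx Tk1 was at 1.11 and 0.891 FPKM at 6 h, 0.313 and 0.572 at 12 h, 1.95 and 1.54 at 24 h and 3.18 and 2.30 at 48 h. It was at 3.82 and 3.88 at 72 h, 3.67 and 4.07 at 7 d, 2.86 and 3.30 at 14 d and 4.05 and 3.42 at 21 d. All 8 libraries from 72 h to 21 d exceeded all 6 libraries from 6 h to 24 h. It fell at 12 h (-1.25 ± 0.25, adjusted p = 0.0137, limma). That fall was lost without undamaged replicate 1, the library with the higher undamaged value, or without 12 h replicate 1, and also with the same FPKM sum and in the first submission alone.

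For the 3 genes that copy chromatin along with DNA, both Hep-Org libraries exceeded all 18 liver libraries. Uhrf1, which recruits the maintenance DNA methyltransferase to new DNA, was at 5.54 and 3.79 FPKM in Hep-Org, against 0.0573 and 0.367 in undamaged liver. After PHx Uhrf1 was at 0.181 and 0.0526 FPKM at 6 h, 0.0424 and 0.0976 at 12 h, 2.25 and 0.304 at 24 h and 1.55 and 0.611 at 48 h. It was at 1.30 and 1.58 at 72 h, 0.115 and 1.37 at 7 d, 0.0796 and 0.165 at 14 d and 0.143 and 0.149 at 21 d. It rose in Hep-Org by 2.22 ± 0.40, adjusted p = 9.71e-04, and against 24 h to 72 h by 1.37 ± 0.33, adjusted p = 0.00487 (limma). Recovered reads numbered 1031 and 822 in Hep-Org, against 5 and 17 in undamaged liver. Chaf1b, a subunit of the histone chaperone that follows the fork, was at 1.91 and 1.79 in Hep-Org, against 0.135 and 0.412 in undamaged liver (1.17 ± 0.29, adjusted p = 0.00793, limma). Chaf1b was at 0.384 and 0.303 FPKM at 6 h, 0.174 and 0.813 at 12 h, 1.04 and 0.408 at 24 h and 1.07 and 0.456 at 48 h. It was at 0.699 and 0.746 at 72 h, 0.168 and 0.944 at 7 d, 0.761 and 0.342 at 14 d and 0.365 and 0.330 at 21 d, and its highest liver value, in 48 h replicate 1, was under both Hep-Org values. Chaf1a, the large subunit, was at 1.28 and 0.976 in Hep-Org and 0.0771 and 0.176 in undamaged liver, and 52.5% of its exon bases are shared with Ubxn6 on the opposite strand. With these 3, the genes above all liver libraries were Orc1, Mcm2, Mcm3, Mcm4, Mcm7, Pold1, Pole and Fen1, that is 7 of the 37 tested and 4 of the 7 untested genes. Among all tested genes 14.9% did so, so the count for the 37 was near that share.

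A list of 78 other genes of replication and of its control was read beside the 44, and 63 of them were tested. In Hep-Org against undamaged liver 17 of the 63 rose and 1 fell, with a median difference of 0.62, against 10.6% higher and 13.8% lower and a median of -0.03 over all tested genes. By group, 4 of 14 tested genes of E2F and G1/S control rose, 4 of 10 of chromatin and methylation, 4 of 11 of nucleotide pools (with 1 lower), 2 of 6 of fork protection and cohesion, and 1 each of 9 for origin recognition and firing, of 8 for Okazaki processing and repair and of 5 for polymerase subunits. The difference with the largest t was that of Ccnd1, the G1 cyclin D1, at 61.1 and 83.1 FPKM in Hep-Org against 1.32 and 4.80 in undamaged liver (4.30 ± 0.59, adjusted p = 1.08e-04, limma). E2f3, an activating E2F factor, was at 3.79 and 3.44 in Hep-Org against 1.44 and 0.779 in undamaged liver, and Cdc25a, a phosphatase that activates cyclin-dependent kinases, at 2.74 and 2.12 in Hep-Org against 0.340 and 0.653 in undamaged liver. They rose by 1.15 ± 0.19 and 1.20 ± 0.23 (limma, adjusted p = 4.09e-04 and 0.00155).

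Genes of nucleotide synthesis were also among the 10 with the largest t. Ctps, which makes CTP, was at 17.4 and 12.2 FPKM in Hep-Org against 1.10 and 1.83 in undamaged liver (2.68 ± 0.39, adjusted p = 1.93e-04, limma). Cad, the first enzyme of pyrimidine synthesis, was at 7.64 and 5.59 in Hep-Org against 1.38 and 2.12 in undamaged liver, and Impdh2, of guanine nucleotide synthesis, at 19.3 and 14.4 in Hep-Org against 6.34 and 4.93 in undamaged liver. They rose by 1.47 ± 0.23 and 1.42 ± 0.26, with adjusted p of 3.21e-04 and 0.00115 (limma). Among the chromatin genes, Dnmt1, the maintenance methyltransferase, was at 6.01 and 5.68 in Hep-Org against 1.13 and 2.01 in undamaged liver, and the remodeller Hells at 3.16 and 2.61 in Hep-Org against 0.162 and 0.281 in undamaged liver. They rose by 1.44 ± 0.26 and 1.67 ± 0.30, with adjusted p of 9.65e-04 and 9.84e-04 (limma). Topbp1, which acts in origin firing, and Msh6, of mismatch repair, rose by 1.48 ± 0.24 and 1.46 ± 0.24 (adjusted p = 4.50e-04 and 4.93e-04, limma). Topbp1 was at 4.26 and 3.61 in Hep-Org and 0.591 and 0.950 in undamaged liver, and Msh6 at 7.41 and 8.46 in Hep-Org and 3.04 and 1.62 in undamaged liver.

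Over the PHx times 9 of the 63 other genes were called by the F test, a share near the 13.6% of all tested genes. Ung and Hat1 were among the 3 with the largest F. Ung, which removes uracil from DNA, was at 4.81 and 5.85 FPKM at 6 h and 5.48 and 6.60 at 12 h, against 0.401 and 1.48 in undamaged liver, and at 1.96 and 2.08 at 72 h. It rose at 6 h by 1.76 ± 0.24, adjusted p = 8.56e-04, and at 12 h by 1.91 ± 0.24, adjusted p = 0.00126 (limma), when the 44 genes were low. Hat1, which acetylates new histones, was at 6.02 and 11.4 at 72 h, against 2.54 and 2.13 in undamaged liver (1.49 ± 0.27, adjusted p = 0.0158, limma).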

How the data were processed

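RNA of 20 mouse libraries was sequenced. The authors aligned reads with HISAT2 2.0.5 to mm10, per the submitters' processing notes, and deposited one table of FPKM values. The counting tool, annotation, strand handling and scaling between libraries were not stated in any source used here. Reads were recovered as FPKM times exon length (GENCODE M21) over the step of each library: 97.9% to 98.7% of low values were within 0.05 of a whole read, and totals were 13.7 to 41.4 M reads per library. Recovered totals were 0.478 (Hep-Org replicate 2) to 1.94 times (undamaged replicate 2) the library size that the FPKM step implies. Median-of-ratios factors of the FPKM lay between 0.976 and 1.04, so the values appear to have been scaled between libraries already. The alternative with the same FPKM sum departs from that scaling. Precision is limited by 2 libraries per group.

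The 13162 genes that reached 1 FPKM in 2 or more libraries were fitted as log2(FPKM + 1) in limma 3.58.1 (R 4.3.3). The fit had 1 mean per group over all 20 libraries and no block, with moderated variances (trend and robust; 10 residual and 3.11 prior degrees of freedom). The pseudocount of 1 understates changes of low genes. P-values were adjusted by Benjamini-Hochberg over all tested genes, and a call needed an adjusted p under 0.05 and a log2 difference of at least 1. The fit was tested on simulated data.

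The series text mentions 2 submissions. The 8 libraries that are replicate 2 of a PHx time were taken as the second and the other 12 as the first, which the labels do not state library by library. Alternatives were another pseudocount, no filter, scaling to the same FPKM sum or by median of ratios, a replicate block, the first submission alone, each library left out, and limma-voom on recovered reads.

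The members and all gene lists were chosen with earlier results of these data known. Values are given library by library for the 3 tested genes per role with the largest F over all groups and for any gene called in a comparison of a PHx time with undamaged liver. Further members were singled out after their values were seen. Among other replication genes, the 10 with the largest t in Hep-Org and the 3 with the largest F over PHx times were selected, of which 1 is not reported here. Promoters, from RefSeq, are of the genes with the 2 largest F in 3 roles.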

Additional observations from a re-analysis of the deposited data

Results flagged for a closer look

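Levels differed between the 8 times after PHx for 7 replication genes in the F test of limma, 7 of the 37 tested. The rule called 13.6% of all tested genes, so the count was near that share. The sex pattern also differed between the times. Tk1 was the 1 called with the replicate number as a block or with no filter on low values. The adjusted p was 0.00253 for Tk1, 0.0335 for Dut, 0.0342 for Gins4, 0.0354 for Lig1, 0.0403 for Pcna, 0.0429 for Rpa3 and 0.0452 for Rrm1. Tk1 had its highest group mean at 7 d and the other 6 at 72 h. The 2 libraries per group were too few to look for a single library far from its group.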

How the results depend on the processing

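With 2 libraries per group, calls near the threshold moved with 1 library. Low genes such as Orc1 and Fen1 did not pass the filter, and the part of sequencing depth in their levels was not tested. Of 41 called differences of single replication genes, 39 stayed called with a pseudocount of 0.1 and 39 with scaling by median of ratios. The number was 37 with the same FPKM sum, 37 with limma-voom, 34 with the replicate block and 32 with no filter. It was lowest in the first submission alone, where 25 of the 41 stayed called. None changed sign in any alternative. Most fits without 1 library left out a library of neither group compared, where the difference itself cannot change. The cause of the changes below was not tested.

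Counts called at 6 h (1) became 2 with a pseudocount of 0.1, 0 with no filter, 0 with the same FPKM sum, 0 in the first submission alone and 2 with limma-voom, and lay between 0 and 2 without any 1 library. At 12 h (2) they became 1 with no filter, 0 with the same sum and 0 in the first submission, and 0 to 2 without any 1 library. At 72 h (5) they became 0 with no filter, 13 with the same sum, 0 in the first submission and 1 with limma-voom, and 0 to 7 without any 1 library. At 7 d (0) they were 0 to 1 without any 1 library.

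Hep-Org against undamaged liver (18) gave 43 with the same sum and 8 to 19 without any 1 library. Against 24 h to 72 h (3) it gave 6 with a pseudocount of 0.1, 34 with the same sum, 1 in the first submission (Gins1, lower), 10 with limma-voom and 1 to 6 without any 1 library. Against 14 d and 21 d (12) it gave 19 with a pseudocount of 0.1, 40 with the same sum, 22 with limma-voom and 9 to 12 without any 1 library. Liver at 24 h to 72 h against 14 d and 21 d (0) gave 0 to 4 without any 1 library. The F test over times (7) gave 1 with no filter, 3 with the same sum, 0 in the first submission and 1 to 12 without any 1 library.

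Same-numbered PHx libraries did not deviate together in most pairs of times (correlations of -0.38 to 0.47 over 28 pairs, over 0.1 in 4). This check cannot tell whether the number marks a shared batch or pairing, since replicate and submission cannot be told apart. With the replicate block the counts were 0 at 6 h, 1 at 12 h, 0 at 72 h and 1 in the F test (Tk1), and all other counts stayed within 1.5 times. The same-sum scaling moved the median of all genes by 1.29 (Hep-Org against undamaged), 1.11 (against 24 h to 72 h), 0.98 (against 14 d and 21 d) and 0.39 (72 h) in log2. All tested genes called with it were 7698 higher and 1024 lower against 24 h to 72 h, 6890 and 1106 against 14 d and 21 d, and 364 and 32 at 72 h.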

Other observations

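Subunits of one complex were closer in level in Hep-Org than in most liver libraries for the MCM ring. The highest of its 6 subunits exceeded the lowest 2.29 and 2.88 times in Hep-Org. In the 18 liver libraries the ratio was 2.20 to 17.8 (median 6.16). Some libraries of 24 h to 72 h were about as even as Hep-Org. They were 24 h replicate 1 (2.60), both 48 h libraries (2.20 and 2.84) and 72 h replicate 1 (2.36). The ratio was 4.85 in 24 h replicate 2, 6.61 in 72 h replicate 2 and 7.48 and 4.48 at 7 d. Mcm7 was the highest subunit in 16 of the 20 libraries and Mcm2 the lowest in 15. For the 5 clamp loader subunits the ratio was 1.75 and 1.65 in Hep-Org and 1.75 to 7.74 in liver (median 3.12). GINS subunits stayed uneven, with Gins4 the highest in all 20 libraries and ratios of 14.9 and 9.04 in Hep-Org against 6.85 to 131 in liver. Gins2, the lowest subunit in 13 of the 20, shares 67.3% of its exon bases with Gse1 on the opposite strand. How such reads were counted is not known, and the part of this overlap in the ratios was not tested. Low genes carry the counting error of few reads in these ratios, and they were not tested.

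The small subunit of ribonucleotide reductase outweighed the large one most in 48 h replicate 1. Rrm2 was 4.22 times Rrm1 there and 1.36 times in 48 h replicate 2. The ratio was 2.90 and 3.87 in Hep-Org and 1.55 and 1.65 in undamaged liver, with 1.09 and 1.28 at 24 h, 2.25 and 2.55 at 72 h and 0.690 and 2.30 at 7 d.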
